A study of Mus musculus with 8 samples.

Results

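Protein tyrosine phosphatases and dual-specificity phosphatases are described here in antigen-specific CD8 T cells of mouse spleen, sorted for the inhibitory Fc receptor FcgRIIB. The members are the genes of the deposited expression table whose symbols begin with Dusp, Ptpn, Ptpr or Ptp4a, without Ptpn6 and Ptpn11. They number 55 of the 13204 genes in the table, with 17 Dusp, 14 Ptpn, 21 Ptpr and 3 Ptp4a genes. One of them, Ptprcap, codes for a CD45-associated protein and not for a phosphatase, and RefSeq lists another, Ptprv, as a transcribed pseudogene.

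OT-I cells are CD8 T cells with a transgenic receptor for an ovalbumin peptide. Mice were given 1000000 of them 24 hours before receiving skin that expresses ovalbumin. On day 14 spleens were combined into 4 pools of 3. Every pool gave 1 sort of 1000 FcgRIIB+ cells and 1 of 1000 FcgRIIB- cells, both CD44hi, Thy1.1+ and CD8+, so both groups share the strain, the graft and the gate, and each group has 4 libraries. The host strain and the age of the mice are not given in the sources used here, and each library stands for a pool, not for 1 mouse.

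Tyrosine phosphatases remove phosphate from tyrosines and so set how strongly receptors signal. In T cells CD45 keeps the kinase LCK ready by removing an inhibitory phosphate, while PTPN22 and PTPN2 work against receptor and cytokine signals. Dual-specificity phosphatases of the MAP kinase type inactivate ERK, JNK and p38, and several are themselves induced by those kinases, which makes them a negative feedback. FcgRIIB, too, signals by recruiting phosphatases to its cytoplasmic tail.

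Depth lay between 5310000 and 22010000 reads per FcgRIIB+ library and between 3060000 and 17950000 reads per FcgRIIB- library. FcgRIIB- replicate 4 was the shallowest library and stood apart in the lowest genes, as described with the members below the filter. Some results that rest on it are also given without it. The unit is RPKM, which divides reads by exon length and by depth. Rankings between genes remain approximate, because differences between pools still correlated with exon length (Spearman's rho -0.27 over all genes). Fcgr2b, which codes for the receptor used to sort, was at 69.9, 55.2, 39.1 and 29.6 RPKM in FcgRIIB+ replicates 1 to 4, against 3.19, 4.82, 1.82 and 4.76 RPKM in FcgRIIB- replicates 1 to 4. Of 20 core T cell markers all were below 0 in log2 fold change (median -0.96), and limma called 1 lower, or 11 with the spleen pool as a block. Their summed level was 2324.6 to 4928.5 RPKM in FcgRIIB+ and 6072.1 to 9637.1 RPKM in FcgRIIB- libraries. Cd8b1 and Cd3g, the most abundant of them, averaged 696.7 and 635.0 RPKM in FcgRIIB+ and 1325.9 and 1188.3 RPKM in FcgRIIB- libraries. Of 20 conventional dendritic cell markers, led by Cd74 and H2-Ab1, 19 were called higher, with sums of 9065.4 to 11874.6 RPKM in FcgRIIB+ and 526.2 to 1878.2 RPKM in FcgRIIB- libraries. Macrophage and monocyte markers summed to 4416.3 to 9611.9 RPKM in FcgRIIB+ and 1839 to 3633.6 RPKM in FcgRIIB- libraries, with 13 of 22 called higher, or 19 with the block. Their most abundant gene, Ly6c2, which T cells can also express, was not called (fold -0.51, SE 0.59). Marker counts cover only genes with values. Of 23 core T cell markers listed 20 had values, as did all 20 dendritic cell and all 22 macrophage and monocyte markers. In such bulk libraries fewer cells of a type and less RNA per cell cannot be told apart.

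Of the 55 members, 41 reached 1 RPKM in at least 4 libraries and were tested, and 14 did not. In a limma fit of log2(RPKM + 1) on the group alone, none of the 41 passed an adjusted p of 0.05 in either direction. Of all 11946 genes tested 3.03% were called higher and 0.268% lower. Before adjustment, 5 members had p under 0.05 and were higher (7.48% of all genes) and 2 were lower (4.67%). The same pool of spleens gave a library to both groups, and with the pool as a block limma called 3 members higher (Dusp3, Ptpre and Ptprs) and 2 lower (Dusp2 and Dusp4). These counts stand beside 7.22% of all genes called higher and 3.85% called lower in that fit, close to the members' 7.32% and 4.88%. Before adjustment the block left 7 members higher and 8 lower with p under 0.05, beside 11% and 12.3% of all genes. The median log2 fold change was -0.17 over the 41 members and -0.11 over all genes tested, FcgRIIB+ minus FcgRIIB- as throughout.

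**Figure D1:**
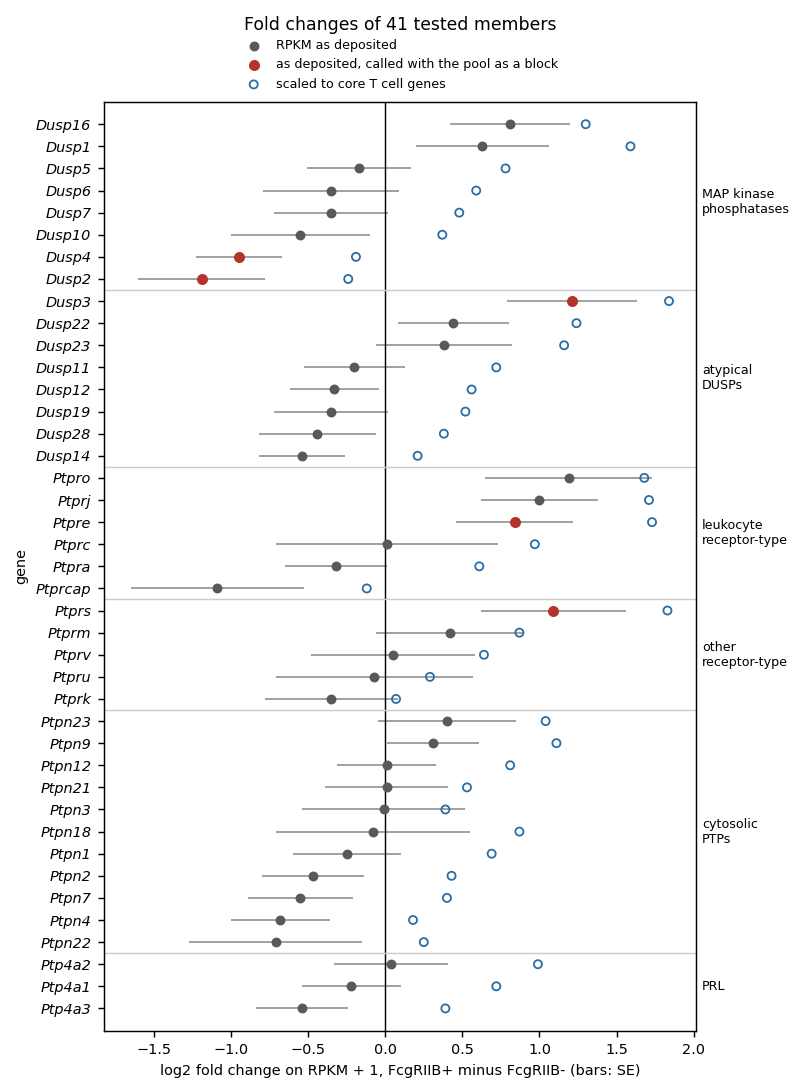
Log2 fold change on the RPKM + 1 scale (horizontal axis, FcgRIIB+ minus FcgRIIB-, bars SE, n = 4 libraries each) of the 41 tested members, grouped by role. Red points are the 5 members called with the pool as a block, and open circles show the same values after each library was scaled to core T cell genes, with a median of 0.64 over the members.

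When each library was scaled to the core T cell markers, the median over all genes shifted by 0.78 and reached 0.67, and that over the members reached 0.64. Under that scaling Dusp2, Dusp4 and Ptprcap were the only tested members that remained below 0, at -0.24, -0.19 and -0.12. The folds below are those of the RPKM as deposited unless stated.

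The MAP kinase phosphatases held both members called lower with the block. Dusp2, a nuclear phosphatase of ERK and p38 that activated lymphocytes induce, was at 23.6, 46.0, 62.3 and 63.7 RPKM in FcgRIIB+ replicates 1 to 4. In FcgRIIB- replicates 1 to 4 it was at 79.4, 166.6, 96.6 and 96.9 RPKM. Each FcgRIIB+ library lay below each FcgRIIB- library. Its log2 fold change of -1.19 (SE 0.41) did not pass without a block and passed with it (limma adjusted p = 0.207, and 0.00302 with the pool as a block). The means were 48.9 ± 18.7 RPKM in FcgRIIB+ and 109.9 ± 38.7 RPKM in FcgRIIB- libraries (SD, n = 4 each, exact permutation p = 0.0286, two-sided, the smallest that 35 splits allow). That test exchanges libraries between pools, and one that exchanges them within pools cannot go below 0.125. The difference was larger in pools 1 and 2, at -1.71 and -1.84, than in pools 3 and 4, at -0.63 and -0.60, and whether it differs between them was not tested.

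Dusp4, a nuclear phosphatase of ERK and JNK, was less abundant per length than Dusp2. It was at 2.98, 2.51, 2.09 and 3.10 RPKM in FcgRIIB+ replicates 1 to 4 and at 7.28, 5.10, 5.26 and 6.88 RPKM in FcgRIIB- replicates 1 to 4, again with no overlap. The 4 pools gave similar differences, from -0.80 to -1.06, with a log2 fold change of -0.95 (SE 0.28, limma adjusted p = 0.110, and 0.0336 with the pool as a block). The lowest value rests on 33 reads. The core T cell markers had a median of -0.96 in the same libraries, and after scaling to them Dusp2 stood at -0.24 and Dusp4 at -0.19, with neither called. In fits with the block that left out 1 pool, chosen after seeing the data, Dusp4 was called only without pool 2 (limma adjusted p = 0.0279), and Dusp2 lost its call only without pool 1 (limma adjusted p = 0.0636).

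Dusp1, which acts mainly on p38 and JNK and is an immediate early gene itself, was the most abundant dual-specificity phosphatase. It was at 235.8, 501.4, 447.4 and 362.5 RPKM in FcgRIIB+ replicates 1 to 4, against 185.6, 403.1, 223.1 and 200.6 RPKM in FcgRIIB- replicates 1 to 4. The FcgRIIB+ library was the higher one in all 4 pools, by 0.31 to 1.00 on the log2 scale, while the groups overlapped. Its log2 fold change of 0.63 (SE 0.43) did not pass (limma adjusted p = 0.704, and 0.185 with the block). After scaling to core T cell genes the fold was 1.59, and with the block added to that scaling, a fit chosen after seeing the data, Dusp1 was called (limma adjusted p = 3.96e-05), 1 of 19 members higher and 0 lower. That fit called 38.9% of all genes higher and 0.126% lower.

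**Figure D2:**
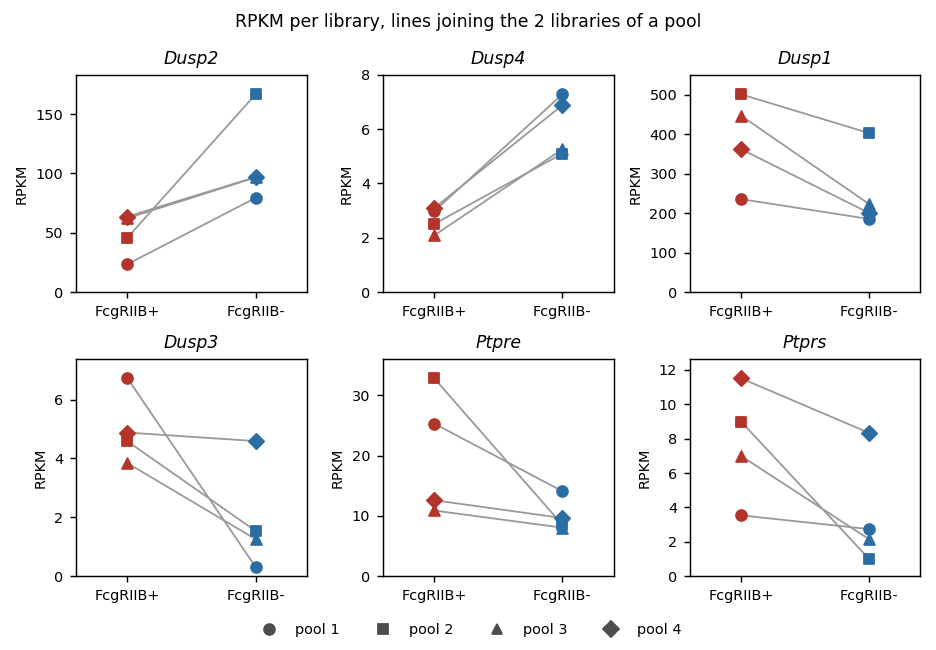
RPKM per library of 6 members (vertical axes start at 0), FcgRIIB+ left of FcgRIIB-, with lines joining the libraries of 1 pool and a marker shape for each pool. For Dusp2 and Dusp4 every FcgRIIB+ point lies below every FcgRIIB- point, whereas for Dusp3 the FcgRIIB- library of pool 4, at 4.59 RPKM, lies among the FcgRIIB+ libraries.

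The promoters of Dusp2, Dusp1 and Dusp3 are shown because these dual-specificity phosphatases stood on opposite sides of 0. The windows run from 250 bases before to 50 after the transcript start, from RefSeq on GRCm38.p6, at chr2:127335909-127336208 on the + strand, chr17:26508423-26508722 on the - strand and chr11:101984742-101985041 on the - strand. Capitals mark the matches to the motifs searched on both strands: the GC box, the cyclic AMP response element, the E-box, the AP-1 site, the TATA box and the CArG box. No 2 matches overlapped.
Dusp2: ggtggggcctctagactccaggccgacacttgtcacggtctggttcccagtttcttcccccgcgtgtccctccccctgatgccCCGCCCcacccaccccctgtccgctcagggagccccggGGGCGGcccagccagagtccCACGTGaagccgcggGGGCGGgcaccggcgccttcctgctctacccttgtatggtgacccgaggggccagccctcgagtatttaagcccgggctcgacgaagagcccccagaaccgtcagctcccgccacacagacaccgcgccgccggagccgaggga
Dusp1: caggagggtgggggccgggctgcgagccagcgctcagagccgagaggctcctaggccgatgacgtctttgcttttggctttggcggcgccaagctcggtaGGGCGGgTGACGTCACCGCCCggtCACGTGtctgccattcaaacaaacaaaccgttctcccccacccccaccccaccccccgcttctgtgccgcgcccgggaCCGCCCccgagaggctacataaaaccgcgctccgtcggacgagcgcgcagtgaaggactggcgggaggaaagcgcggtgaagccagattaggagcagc
Dusp3: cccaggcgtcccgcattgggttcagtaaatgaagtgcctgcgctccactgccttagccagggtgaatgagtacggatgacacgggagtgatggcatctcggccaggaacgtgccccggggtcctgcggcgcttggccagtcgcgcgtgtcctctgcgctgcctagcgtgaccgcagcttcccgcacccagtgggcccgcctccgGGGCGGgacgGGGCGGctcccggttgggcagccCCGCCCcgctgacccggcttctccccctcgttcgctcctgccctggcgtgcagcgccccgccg
Each of the 3 windows held 3 GC boxes, spelled GGGCGG, a motif found in 35.7% of all 32851 promoter windows of this length and in 62.5% of the 56 windows of members. Dusp2 and Dusp1 both held an E-box, spelled CACGTG, as 7.15% of all windows did. Only the Dusp1 window of these 3 held a cyclic AMP response element, spelled TGACGTCA (1.79% of all windows), with a GC box on the other strand directly after it and no base between them. None of the 3 held an AP-1 site, searched as TGANTCA and found in 7.81% of all windows. None held a TATA box, searched as TATAA (24.9% of all windows), or a CArG box (1.63%). Windows were given for 45 of the 55 members.

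Dusp5, a nuclear phosphatase specific for ERK, was at 43.4 to 78.7 RPKM in FcgRIIB+ and 55.2 to 89.7 RPKM in FcgRIIB- libraries. Its cytosolic counterpart for ERK, Dusp6, was at 17.6 to 37.6 RPKM and at 16.3 to 61.8 RPKM in the same order of groups. Neither passed, at folds of -0.17 (SE 0.34) for Dusp5 and -0.35 (SE 0.44) for Dusp6, and for both the libraries of the groups overlapped. For Dusp10 and Dusp7, picked for mention once their values were seen, the folds were -0.55 (SE 0.45) and -0.35 (SE 0.37) and did not pass. Dusp10 acts on JNK and p38 and Dusp7 on ERK. Dusp16, a phosphatase of JNK and p38 likewise named after its values were seen, was at 1.65 to 2.39 RPKM in FcgRIIB+ libraries and at 0.162, 0.331, 1.12 and 1.68 RPKM in FcgRIIB- replicates 1 to 4. The difference was 1.35 in pools 1 and 2 and 0.32 and 0.23 in pools 3 and 4, and the fold of 0.81 (SE 0.39) did not pass. With pool 4 left out, a fit chosen after seeing the data, limma with the block called Dusp16 as 1 of 6 members higher, beside 10.4% of all genes. In the 8 MAP kinase phosphatases tested, 6 were below 0 and 2 above, with a median of -0.35. Of all 11946 genes tested 7312 were below 0 and 4634 above, with a median of -0.11.

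Among the atypical dual-specificity phosphatases, small enzymes without the MAP kinase binding domain, Dusp3 was the one called with the block. DUSP3, also called VHR, acts on ERK and JNK. It was at 6.72, 4.58, 3.84 and 4.88 RPKM in FcgRIIB+ replicates 1 to 4, against 0.318, 1.54, 1.26 and 4.59 RPKM in FcgRIIB- replicates 1 to 4. FcgRIIB- replicate 4 reached the level of the FcgRIIB+ libraries, and the other 3 FcgRIIB- libraries lay below all of them. In FcgRIIB- replicate 4 members below the filter also lay at 1.80 to 5 RPKM. Its fold of 1.21 (SE 0.42) passed with the pool as a block only (limma adjusted p = 0.207, and 0.0275 with the block). Without FcgRIIB- replicate 4 it was 1.59, and limma without a block then called it (adjusted p = 0.0248), as the 1 member among 4.21% of all genes called higher. With the block the call ended when pool 1 or pool 3 was left out (limma adjusted p = 0.293 and 0.122). The lowest value rests on 24 reads. Dendritic cell and macrophage markers were higher in the same libraries (medians 3.76 over 20 and 2.60 over 22 tested), and their part in the difference was not tested.

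Dusp11, an RNA phosphatase of this family, Dusp19 and Dusp12 were the most abundant uncalled members of the atypical class. They averaged 19.0 ± 5.6, 9.14 ± 3.79 and 9.10 ± 1.33 RPKM in FcgRIIB+ libraries and 21.9 ± 6.13, 12 ± 5.21 and 11.9 ± 3.03 RPKM in FcgRIIB- libraries (SD, n = 4 each). Their folds of -0.20 (SE 0.33), -0.35 (SE 0.37) and -0.33 (SE 0.29) did not pass. Dusp14, which acts on the TAB1 adaptor in T cells and is named after its values were seen, was at 2.08 to 3.67 RPKM in FcgRIIB+ and 3.79 to 5.22 RPKM in FcgRIIB- libraries. The groups did not overlap, and the fold of -0.54 (SE 0.28) did not pass. Dusp22, a phosphatase of LCK also named after its values were seen, was higher in FcgRIIB+ in pools 1 to 3 and lower in pool 4, with a fold of 0.44 (SE 0.36). Dusp23 and Dusp28, at most at 10.1 RPKM in any library, had folds of 0.38 and -0.44.

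Among the receptor-type phosphatases of leukocytes, Ptprc was the most abundant enzyme. Ptprc, which codes for CD45, was at 421.1, 370.6, 67.5 and 84.8 RPKM in FcgRIIB+ replicates 1 to 4 and at 473.6, 210.5, 115.1 and 76.7 RPKM in FcgRIIB- replicates 1 to 4. The 4 libraries of pools 1 and 2 all lay above the 4 libraries of pools 3 and 4. The log2 fold change between the groups was 0.01 (SE 0.72, and 0.28 with the block). After scaling to core T cell genes it was 0.97.

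Ptprcap, the partner of CD45, was at 267.8, 166.6, 603.6 and 747.6 RPKM in FcgRIIB+ replicates 1 to 4, against 471.0, 837.6, 1126.3 and 931.2 RPKM in FcgRIIB- replicates 1 to 4. It was lower in FcgRIIB+ in all 4 pools, by 0.32 to 2.32 on the log2 scale, and did not pass (fold -1.09, SE 0.56, limma adjusted p = 0.503, and 0.0532 with the block). Without pool 4 it was called with the block at -1.34 (limma adjusted p = 0.00998). Between pools 3 and 4 and pools 1 and 2 its level moved up by 1.18 on the log2 scale, while Ptprc moved by -2.05. The exon model of Ptprc is 7181 bases long and that of Ptprcap 846 bases.

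Ptpre, which codes for a phosphatase known from macrophages and osteoclasts, was at 25.3, 32.8, 10.9 and 12.6 RPKM in FcgRIIB+ replicates 1 to 4 and at 14.1, 8.54, 8.05 and 9.65 RPKM in FcgRIIB- replicates 1 to 4. Within each pool the FcgRIIB+ library was higher, by 0.80, 1.82, 0.39 and 0.35 on the log2 scale for pools 1 to 4, although the groups overlapped. The fold of 0.84 (SE 0.38) did not pass without the block (limma adjusted p = 0.404) and passed narrowly with it (limma adjusted p = 0.0491). With pool 1, 2 or 3 left out it was not called with the block. Macrophage markers were higher in the same libraries, and their part in the difference of Ptpre was not tested. After scaling to core T cell genes the fold was 1.73.

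Ptprj and Ptpro, named after their values were seen, code for CD148, which opposes receptor signals in leukocytes, and for a phosphatase also known from kidney podocytes. Ptprj was at 4.51, 9.43, 4.29 and 5.46 RPKM in FcgRIIB+ replicates 1 to 4 and at 1.81, 1.11, 2.50 and 4.92 RPKM in FcgRIIB- replicates 1 to 4. Ptpro was at 5.34, 5.82, 1.74 and 1.88 RPKM in FcgRIIB+ replicates 1 to 4 and at 0.041, 1.37, 0.099 and 3.67 RPKM in FcgRIIB- replicates 1 to 4, the lowest value resting on 6 reads. In both genes FcgRIIB- replicate 4 was the highest library of its group, within the 1.80 to 5 RPKM of members below the filter there. Their folds of 1.00 (SE 0.38) and 1.19 (SE 0.54) did not pass, with blocked limma adjusted p of 0.0615 and 0.0626. With pool 4 left out, a fit chosen after seeing the data, limma with the block called both, at 1.29 (adjusted p = 0.00354) and 1.82 (adjusted p = 5.6e-07). That fit called 6 members higher and 2 lower, beside 10.4% and 3.83% of all genes. Ptpra, an activator of SRC family kinases, averaged 20.6 ± 7.11 RPKM in FcgRIIB+ and 25.4 ± 5.89 RPKM in FcgRIIB- libraries and did not pass (fold -0.32, SE 0.33).

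Of 15 receptor-type phosphatases linked to adhesion, nerve and other tissues, 5 were tested and Ptprs was called with the block. PTPRS binds proteoglycans and is also found on plasmacytoid dendritic cells. It was at 3.54, 8.99, 6.99 and 11.5 RPKM in FcgRIIB+ replicates 1 to 4, against 2.74, 1.00, 2.15 and 8.33 RPKM in FcgRIIB- replicates 1 to 4. FcgRIIB- replicate 4 was again the highest of its group and lay above 2 of the FcgRIIB+ libraries. Its fold of 1.09 (SE 0.47) likewise passed only with the block (limma adjusted p = 0.368, and 0.0362 with it). The call with the block ended when pool 2 or pool 3 was left out, and without pool 4 the fold was 1.31 (limma adjusted p = 0.0031 with the block). Plasmacytoid dendritic cell markers, led by Bst2 and Ly6d, summed to 310.8 to 672.5 RPKM in FcgRIIB+ and 301.9 to 534.9 RPKM in FcgRIIB- libraries, with Siglech called higher and Pacsin1 lower of 9 tested. Their part in the difference of Ptprs was not tested.

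The cytosolic tyrosine phosphatases gave no call in either fit, with 4 of 11 tested members above 0 and 7 below and a median of -0.08. Of all 11946 genes tested 4634 were above 0 and 7312 below. Ptpn22, which works with the kinase CSK against LCK and ZAP70, was the most abundant. It was at 211.2, 140.3, 60.7 and 48.1 RPKM in FcgRIIB+ replicates 1 to 4, against 244.3, 229.7, 155.3 and 72.4 RPKM in FcgRIIB- replicates 1 to 4. It was lower in FcgRIIB+ in all 4 pools, by 0.21 to 1.34 on the log2 scale, with a fold of -0.71 (SE 0.56) and a blocked limma adjusted p of 0.0815. Ptpn2, which removes phosphate from JAK kinases and STAT factors, and Ptpn4, both named after their values were seen, were likewise lower in all 4 pools. Their folds were -0.47 (SE 0.33) and -0.68 (SE 0.32). Under scaling to core T cell genes Ptpn22, Ptpn2 and Ptpn4 stood at 0.25, 0.43 and 0.18.

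Ptpn7, a phosphatase of ERK and p38 in lymphocytes, averaged 40.8 ± 10.7 RPKM in FcgRIIB+ and 59.9 ± 13.3 RPKM in FcgRIIB- libraries (fold -0.55, SE 0.34). Ptpn1, a phosphatase of JAK2 and the insulin receptor named after its values were seen, averaged 36.8 ± 7.88 and 45 ± 14.1 RPKM in the same order (fold -0.25, SE 0.35). Neither passed, and Ptpn7 was lower in all 4 pools. Ptpn18 was at 39.7, 52.2, 230.2 and 201.0 RPKM in FcgRIIB+ replicates 1 to 4 and at 52.6, 84.6, 129.8 and 210.9 RPKM in FcgRIIB- replicates 1 to 4. Its 4 libraries of pools 3 and 4 all lay above those of pools 1 and 2, and the fold between groups was -0.08 (SE 0.63). Ptpn9, Ptpn12, Ptpn21 and Ptpn23 had group means between 1.32 and 5.50 RPKM and folds from 0.01 to 0.40. Outside the rule, Ptpn6, which codes for the phosphatase SHP-1, averaged 189.3 ± 102.4 RPKM in FcgRIIB+ and 233.5 ± 97.6 RPKM in FcgRIIB- libraries (fold -0.35, SE 0.52). Ptpn11, the gene of SHP-2, averaged 3.73 ± 0.846 and 4.32 ± 2.11 RPKM in the same order (fold -0.07, SE 0.37).

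The PRL phosphatases, small enzymes anchored to membranes by a lipid, were abundant in all libraries. Ptp4a2 averaged 75.4 ± 20.1 RPKM in FcgRIIB+ and 74.3 ± 22.3 RPKM in FcgRIIB- libraries, Ptp4a1 48.1 ± 9.93 and 56.1 ± 9.61 RPKM, and Ptp4a3 20.7 ± 2.62 and 31.0 ± 8.22 RPKM in the same order. Ptp4a3 was at 16.8, 21.8, 21.3 and 22.8 RPKM in FcgRIIB+ replicates 1 to 4 and at 24.8, 43.1, 29.3 and 27.0 RPKM in FcgRIIB- replicates 1 to 4, with no overlap. Its fold of -0.54 (SE 0.30) did not pass (limma adjusted p = 0.574, and 0.156 with the block).

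**Figure D3:**
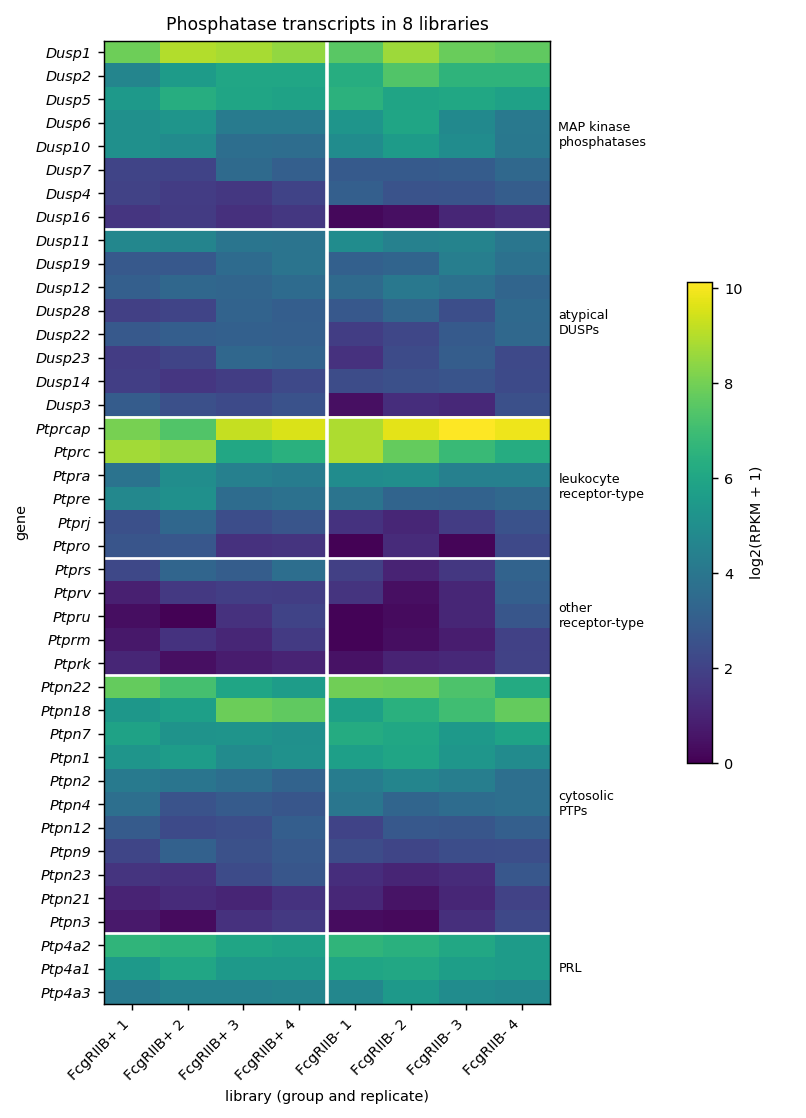
Levels as log2(RPKM + 1) (colour) of the 41 tested members in the 4 FcgRIIB+ and then the 4 FcgRIIB- libraries, grouped by role and ordered by mean level. Ptprc is brightest in pools 1 and 2 of both groups and Ptpn18 in pools 3 and 4, while Dusp2 is darker in the FcgRIIB+ columns.

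Counted over the 41 tested members, 4 had every FcgRIIB+ library below every FcgRIIB- library, namely Dusp2, Dusp4, Dusp14 and Ptp4a3, and none had every one above. Of all genes tested 4.15% had the first property and 4.61% the second. In all 4 pools 11 members were lower and 6 were higher in FcgRIIB+, beside 19.8% and 10.3% of all genes.

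Many members differed more between pools than between groups. The size of the difference between pools 3 and 4 and pools 1 and 2, a split that the labels do not give and that was chosen after seeing the data, had a median of 0.52 on the log2 scale over the 41 members, and that of the difference between groups 0.40. Over all genes these medians were 0.63 and 0.30. The 4 libraries of pools 1 and 2 lay above all others for 3 members (15% of all genes), namely Ptprc, Ptp4a2 and Dusp6. Those of pools 3 and 4 lay above all others for 5 members (16.6% of all genes), namely Ptpn18, Dusp7, Dusp19, Ptpn3 and Ptpru. None of the 5 members called with the block was among these 8. Across genes, which are not independent and share the same 8 libraries, the pool difference correlated with exon length at a Spearman's rho of -0.27 over all genes and of -0.04 over the 41 members. Pools 1 and 2 were also the deeper ones in both groups, and the part of depth in these differences was not tested.

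**Figure D4:**
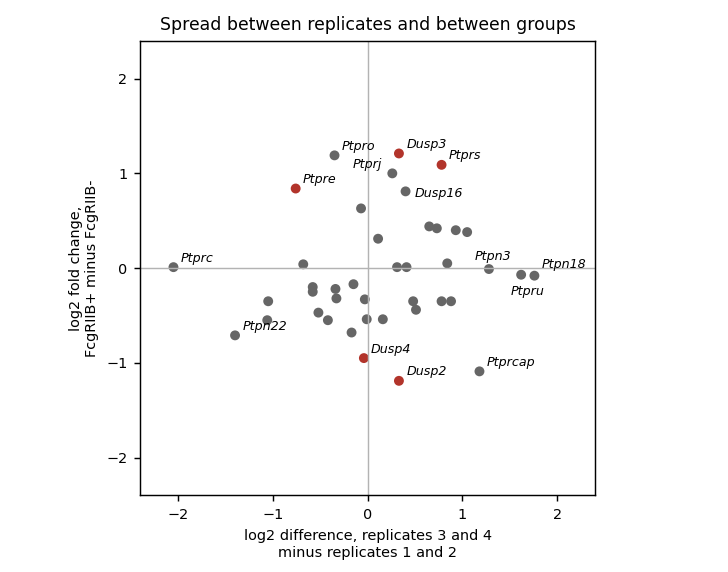
Each point is 1 of the 41 tested members, placed by the log2 difference of pools 3 and 4 minus pools 1 and 2 (horizontal axis) and by the log2 fold change of FcgRIIB+ minus FcgRIIB- (vertical axis), both on RPKM + 1. Ptprc at -2.05 and Ptpn18 at 1.76 lie far out along the horizontal axis and near 0 on the vertical one, and the 5 members called with the block (red) lie within 0.78 of 0 on the horizontal axis.

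The 14 members below the filter were Dusp18, 10 receptor-type phosphatases (Ptprb, Ptprd, Ptprf, Ptprg, Ptprh, Ptprn, Ptprn2, Ptprq, Ptprt and Ptprz1) and the cytosolic Ptpn5, Ptpn13 and Ptpn14. Their median was 0.382, 0.152, 1.02 and 1.00 RPKM in FcgRIIB+ replicates 1 to 4 and 0.129, 0.171, 0.651 and 3.14 RPKM in FcgRIIB- replicates 1 to 4. FcgRIIB- replicate 4, the shallowest library, was the highest of the 8 for all 14, as it was for 96.4% of the 1258 genes below the filter. Just inside the filter, with 4 libraries at 1 RPKM or more, were Ptpn3, Ptpru, Ptprm and Ptprk, and just outside, with 3, were Dusp18, Ptprf, Ptprh, Ptprn2, Ptprn and Ptprb. Of the tested low members Ptprm was at 0.592 to 2.32 RPKM in FcgRIIB+ and 0.080 to 2.87 RPKM in FcgRIIB- libraries, with a fold of 0.42 (SE 0.48). Ptprk, Ptpru, Ptprv and Ptpn3 had folds of -0.35, -0.07, 0.05 and -0.01 and overlapped between the groups.

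**Figure D5:**
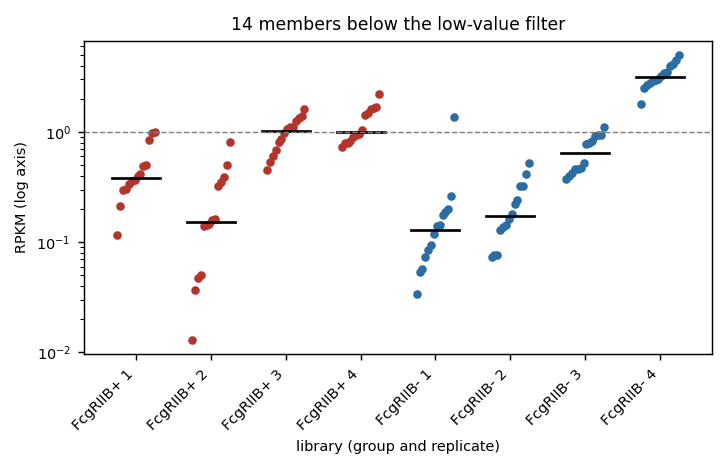
RPKM (log axis) of the 14 members below the low-value filter in each library, FcgRIIB+ then FcgRIIB-, with black bars at the medians and a dashed line at 1 RPKM. In FcgRIIB- replicate 4 all 14 lie between 1.80 and 5 RPKM, above their values in every other library.

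Genes on which these phosphatases act were counted by list. The counts of this and the following pathway lists stand beside the shares of all genes. Limma called 3.03% of all genes higher and 0.268% lower, and with the block 7.22% and 3.85%. Before adjustment 7.48% were higher and 4.67% lower with p under 0.05. Of 31 MAP kinases and kinases upstream of them no gene passed in limma (before adjustment, p was under 0.05 for 3 higher and 1 lower), and the median fold was -0.09. With the pool as a block 4 were higher and 1 lower. Map2k1 and Map2k3, the most abundant, averaged 35.1 and 31.8 RPKM in FcgRIIB+ and 41.6 and 28.2 RPKM in FcgRIIB- libraries. The p38 genes went both ways with the block, and those called are named after their values were seen. Mapk11 was lower at -0.89 (blocked limma adjusted p = 0.0274), and Mapk13 and Mapk14 were higher at 1.49 (blocked limma adjusted p = 0.00528) and 0.78 (blocked limma adjusted p = 0.0469). In pool 4 the difference of Mapk13 was -0.07, with FcgRIIB- replicate 4 at 10.1 RPKM and FcgRIIB+ replicate 4 at 9.63 RPKM. Map2k6, a kinase that activates p38, was higher at 1.25 (blocked limma adjusted p = 0.0052), as was Map3k8 at 0.81 (blocked limma adjusted p = 0.0268).

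Among 16 other inhibitors of ERK signalling, a list that also holds Ptpn6 and Ptpn11, no gene passed in limma, where 4 lower ones had p under 0.05 before adjustment, and the median was -0.37. With the block 2 genes, named after their values were seen, were lower. Spry1, an inducible inhibitor of RAS signalling, and Rasal3, a RAS GTPase activator of lymphocytes, were at -1.30 and -0.90 (blocked limma adjusted p = 0.00952 and 0.0118). Dok2, the most abundant after Ptpn6, averaged 118.7 RPKM in FcgRIIB+ and 174.8 RPKM in FcgRIIB- libraries. Of 14 genes for SRC family kinases, ZAP70, SYK and CSK with its anchors, limma called 2 higher and 0 lower, and with the block 4 were higher and 4 lower. Lyn, a kinase of myeloid and B cells, was higher at 2.86 (limma adjusted p = 0.0156), in the libraries where dendritic cell and macrophage markers were higher. Lck and Csk, kinases whose balance CD45 and PTPN22 work on, were chosen after their values were seen and were at 369.8 and 37.3 RPKM in FcgRIIB+ and 703.2 and 46.1 RPKM in FcgRIIB- libraries and did not pass.

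Of 29 listed phosphatases and phosphatase relatives outside the name prefixes no gene passed in limma, and the median was 0.09. Before adjustment 2 higher ones had p under 0.05, and with the block 2 were higher and 1 lower. The lower one was Ubash3a, a suppressor of T cell receptor signals that is also on the core T cell list, at 27.8 RPKM in FcgRIIB+ and 49.8 RPKM in FcgRIIB- libraries. Cdc25b, a cell cycle phosphatase, was at 30.8 and 44.6 RPKM in the same order. Immediate early genes, which MAP kinases and stress induce as they do Dusp1, had a median of 0.68 over 21 tested, with Atf3, Fosb, Ier3 and Egr1 called higher and none lower (8 higher and 1 lower with the block). Atf3 was at 3.91 (limma adjusted p = 0.00495) and Egr1 at 1.98 (limma adjusted p = 0.0336). Their part in the values of Dusp1 was not tested.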

How the data were processed

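RNA of 1000 sorted cells per library was copied into cDNA with SMART-seq v4, and libraries were made with NexteraXT from 200 pg of cDNA, per the labels' protocols. The authors deposited 1 table of RPKM values per gene over exons, per the file headers, with all 8 columns used and 0 left out. The submitters' processing notes name TopHat2 and mm9. The counting tool, its strand setting and the treatment of reads that match several genes are not given in the sources used here, so reads of overlapping or near-identical genes could be split between them. Depth was recovered from the steps of the RPKM values, with 100% of the values checked in each library whole within 0.1 reads.

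Genes that reached 1 RPKM in 4 or more libraries (11946 of 13204) were tested on log2(RPKM + 1) with limma 3.58.1 in R 4.3.3 (eBayes with a trend, group as the only term), and p-values were adjusted by Benjamini-Hochberg over all of them, with a threshold of 0.05. Fold changes on this scale understate the change of low genes. The second fit added the pool as a block. The study's design states that both groups of a replicate were sorted from the same pooled spleens. Libraries of pools 1 to 4 deviated together from their group means (correlations 0.70, 0.41, 0.56 and 0.68). Pools 1 and 2 also differed from pools 3 and 4, so these correlations alone cannot show that a replicate number marks 1 pool. Alternatives changed the pseudocount, the filter, the scaling and the libraries used. Without the block the p-values set the group difference against the spread between the libraries of a group, which come from different pools. With the block they set it against how much that difference varies from pool to pool. Members and lists were chosen with earlier results of these data known. Members were named where either fit called them, where they were among the 3 most abundant uncalled members of their role, or where they lay next to the filter. Pathway lists gave up to 4 genes called without the block, or the 2 most abundant where none was called. Other named genes are marked as named after their values were seen or given by range. The values of 1 gene of a pathway list are not reported here.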

Additional observations from a re-analysis of the deposited data

Results flagged for a closer look

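Ptp4a1, which codes for a PRL phosphatase, was at 62.9 RPKM in FcgRIIB+ replicate 2, while the other 3 FcgRIIB+ libraries lay between 42.0 and 44.2 RPKM. On the log2 scale the gap to the nearest library was 0.88 of the range of the group, above Dixon's critical value for 4 samples. It was the only one of 70 groups of 4 libraries checked, where chance alone marks about 1 in 20.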

How the results depend on the processing

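Without a block limma called no member under either smaller pseudocount, without a filter, at 5 RPKM (27 members tested), after rescaling to a common RPM sum or by median ratios, or with replicates 3 and 4 alone. With the replicate block it called 3 higher and 2 lower, beside 7.22% and 3.85% of all genes. Scaled to core T cell genes without a block it called 3 higher (Dusp3, Ptpre and Ptprj) and 0 lower, beside 1033 and 2 of all 11946 genes. With the block added to that scaling it called 19 higher, beside 38.9% of all genes. With replicates 1 and 2 alone it called 4 members higher and 2 lower, beside 875 and 142 of all 11946 genes. Leaving out single libraries or, with the block, single pools gave 0 to 6 members higher and 0 to 2 lower. Of all 11946 genes, these fits called 178 to 1242 higher and 5 to 458 lower. The count was 1 member higher (Dusp3) when FcgRIIB- replicate 4 was left out and 0 for every other single library.

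Scaling to core T cell genes turned the log2 fold change above 0, with or without the replicate block, for every tested member below 0 other than Dusp2, Dusp4 and Ptprcap. These were Dusp11 at 0.72, Dusp28 at 0.38, Dusp19 at 0.52, Dusp12 at 0.56, Dusp14 at 0.21, Dusp5 at 0.78, Dusp6 at 0.59, Dusp7 at 0.48, Dusp10 at 0.37, Ptpn22 at 0.25, Ptpn18 at 0.87, Ptpn7 at 0.40, Ptpn4 at 0.18, Ptpn2 at 0.43, Ptpn1 at 0.69, Ptpn3 at 0.39, Ptpra at 0.61, Ptpru at 0.29, Ptprk at 0.07, Ptp4a1 at 0.72 and Ptp4a3 at 0.39. This scaling raises every gene by construction, because the core T cell genes were lower.

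Ptpn3 turned to 0.15 and 0.03 at pseudocounts of 0.1 and 0.5 and to 0.03 under median ratios, and Ptprc was at 0.00 under a common RPM sum. Replicates 1 and 2 alone gave 0.02 for Ptpru and 0.20 for Ptpn3. Replicates 3 and 4 alone gave 0.38 for Ptpn18, -0.31 for Ptprc, -0.22 for Ptprv, 0.10 for Dusp7 and -0.07 for Dusp22. The cause of these turns was not tested.

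With single libraries left out, the fold ran from -0.48 to 0.35 for Ptpn18, -0.42 to 0.49 for Ptprc, -0.32 to 0.57 for Ptprv, -0.28 to 0.37 for Ptpn3, -0.17 to 0.18 for Ptp4a2 and -0.42 to 0.49 for Ptpru. With single pools left out under the replicate block it ran from -0.38 to 0.12 for Ptpn18, -0.26 to 0.26 for Ptprc (-0.04 without replicate 4), -0.36 to 0.48 for Ptprv (-0.19 without replicate 3), -0.13 to 0.15 for Ptpn3, -0.03 to 0.09 for Ptp4a2, -0.21 to 0.14 for Ptpru and -0.36 to 0.11 for Dusp5. The fits with the block that left out a pool or scaled to core T cell genes were chosen after seeing the data. The 3060000 reads of FcgRIIB- replicate 4, the shallowest library, limit what low members can show: Dusp23 there rests on 16 reads.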

Other observations

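Other cell type markers moved with the sorted groups as well. Of 10 basophil and mast cell markers, 4 were called higher by limma (9 with the pool as a block), with sums of 105.2 to 1295.1 RPKM in FcgRIIB+ and 12.5 to 55.4 RPKM in FcgRIIB- libraries. Of 11 B cell and plasma cell markers 2 were called higher, Fcrla and Jchain, and the median fold was -0.43. NK cell markers had 1 of 8 called higher and 1 lower, and neutrophil and red cell markers had none called of 8 and 7, with 3 red cell markers higher with the block. The part of these cell types in the values of the phosphatases was not tested.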
